A study of Homo sapiens with 4 samples.

Results

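The growth factor receptor kinases EGFR, ERBB2, ERBB3, FGFR1, FGFR2, FGFR3, IGF1R, INSR, MET and AXL were followed in DU145 prostate cancer cells with and without knockdown of DCUN1D1. Every probe set that named exactly 1 gene, with that gene among these 10, was taken, which gave 53 of 40914 single-gene probe sets and 10 of 19774 genes. DU145 is an established androgen-independent line from a prostate carcinoma metastasis. RNA was measured on 4 Affymetrix arrays, 2 of cells carrying an shRNA against GFP (shGFP, the control DU145-GFP) and 2 of cells carrying an shRNA against DCUN1D1 (shDCUN1D1, DU145-DCUN1D1-KD). All cells had received a lentivirus, were described as stably transduced biological duplicates, and were kept in DMEM for 16 h before RNA was collected. The sample records also mention DMSO without saying which cells received it. The methods describe infection followed by short culture, with more than one DCUN1D1 shRNA. Which shRNA an array carried, and whether the cells were a clone, is not stated in the records. The comparison asks how the mRNA of these receptors differed when DCUN1D1, a co-E3 ligase that promotes the attachment of NEDD8 to cullins, was targeted. No phosphorylated or total protein was measured on the arrays.

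Receptor tyrosine kinases span the plasma membrane. An extracellular ligand brings receptors together or rearranges an existing dimer, the kinase domains phosphorylate each other on tyrosine, and adaptors such as GRB2 and SHC1 dock on the phosphotyrosines and start the RAS-MAPK and PI3K-AKT cascades. Ubiquitin ligases of the CBL family then mark the active receptor for endocytosis and lysosomal breakdown, and SOCS and Sprouty proteins dampen the signal. Prostate epithelium uses EGF, FGF and IGF signals from the stroma, and androgen-independent lines are widely used to study EGFR, IGF1R, MET and AXL.

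DCUN1D1 itself was represented by 6 probe sets. Its brightest, 222678_PM_s_at, read 2.55 and 1.99 on the log2 signal scale in the shGFP arrays and 1.60 and 1.45 in the shDCUN1D1 arrays. The groups did not overlap, a change of -40.4% and a log2 difference of -0.75 (SE 0.26, n = 2 arrays a group) that limma did not call (adjusted p = 0.625). A second probe set, 238879_PM_at, read 1.37 and 1.71 against 1.07 and 1.07. Both shDCUN1D1 arrays lay below both shGFP arrays in 4 of the 6 probe sets, a pattern that 25% of all probe sets showed. The groups overlapped in the other 2, with differences of 0.12 and 0.07. None of the 6 was past the bound on the fold change that is used for the receptors below. No DCUN1D1 probe set exceeded the nonspecific control described next in any array.

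The arrays differed among themselves beyond their labels. Probe sets for the 3′ end of GAPDH read 5.02, 4.68, 10.82 and 5.09 in shGFP replicates 1 and 2 and shDCUN1D1 replicates 1 and 2, its middle read 9.39, 9.05, 11.07 and 10.01, and its 5′ end read 6.6, 6.42, 9.67 and 7.14, so shDCUN1D1 replicate 1 was highest at all 3 positions and by most at the 3′ end. For ACTB the 3′ end read 4.05, 3.95, 8.30 and 4.35 and the 5′ end 8.52, 8.06, 9.21 and 8.79, both highest in that array, while the middle was alike in both shDCUN1D1 arrays (10.48 and 10.55). The middle probe set of BioB, an RNA added to the samples by the assay, read 8.22 and 10.49 in the shGFP arrays and 6.37 and 6.22 in the shDCUN1D1 arrays. The array also carries probes designed to match no transcript, and the set of these with 20 G or C bases, called the nonspecific control here, read 2.97 and 3.30 in the shGFP arrays and 2.48 and 2.51 in the shDCUN1D1 arrays, and both knockdown arrays were lower in 20 of 23 such controls (median difference -0.29). Among 8 epithelial markers, each read by its brightest probe set, KRT8 was above that control in all 4 arrays, KRT18 in shDCUN1D1 replicate 1, and 6, among them EPCAM and CDH1, in none. Of 13 fibroblast, endothelial and leukocyte markers, 11 were above it in no array, and COL1A1 (3.38, 4.06, 3.51 and 4.75) and LAPTM5 were the others. In bulk RNA, fewer cells of a type and less RNA per cell cannot be told apart.

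Most receptor probe sets gave low signal. Values ran from 1.01 to 4.09 on the log2 scale, 36 of the 53 were not above the nonspecific control in any array, 17 were above it in at least 1 array, and 0 were above it in all 4. The number above it was 2 in each shGFP array (3.77%) and 8 (15.1%) and 10 (18.9%) in the shDCUN1D1 arrays, against 8.97%, 6.07%, 18.7% and 14.5% of all probe sets in the same arrays. The control itself was lower in the shDCUN1D1 arrays, and the part this plays in those shares was not tested. The levels below are therefore weak signals, and probe sets of one gene are shown singly because they did not behave alike.

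**Figure D1:**
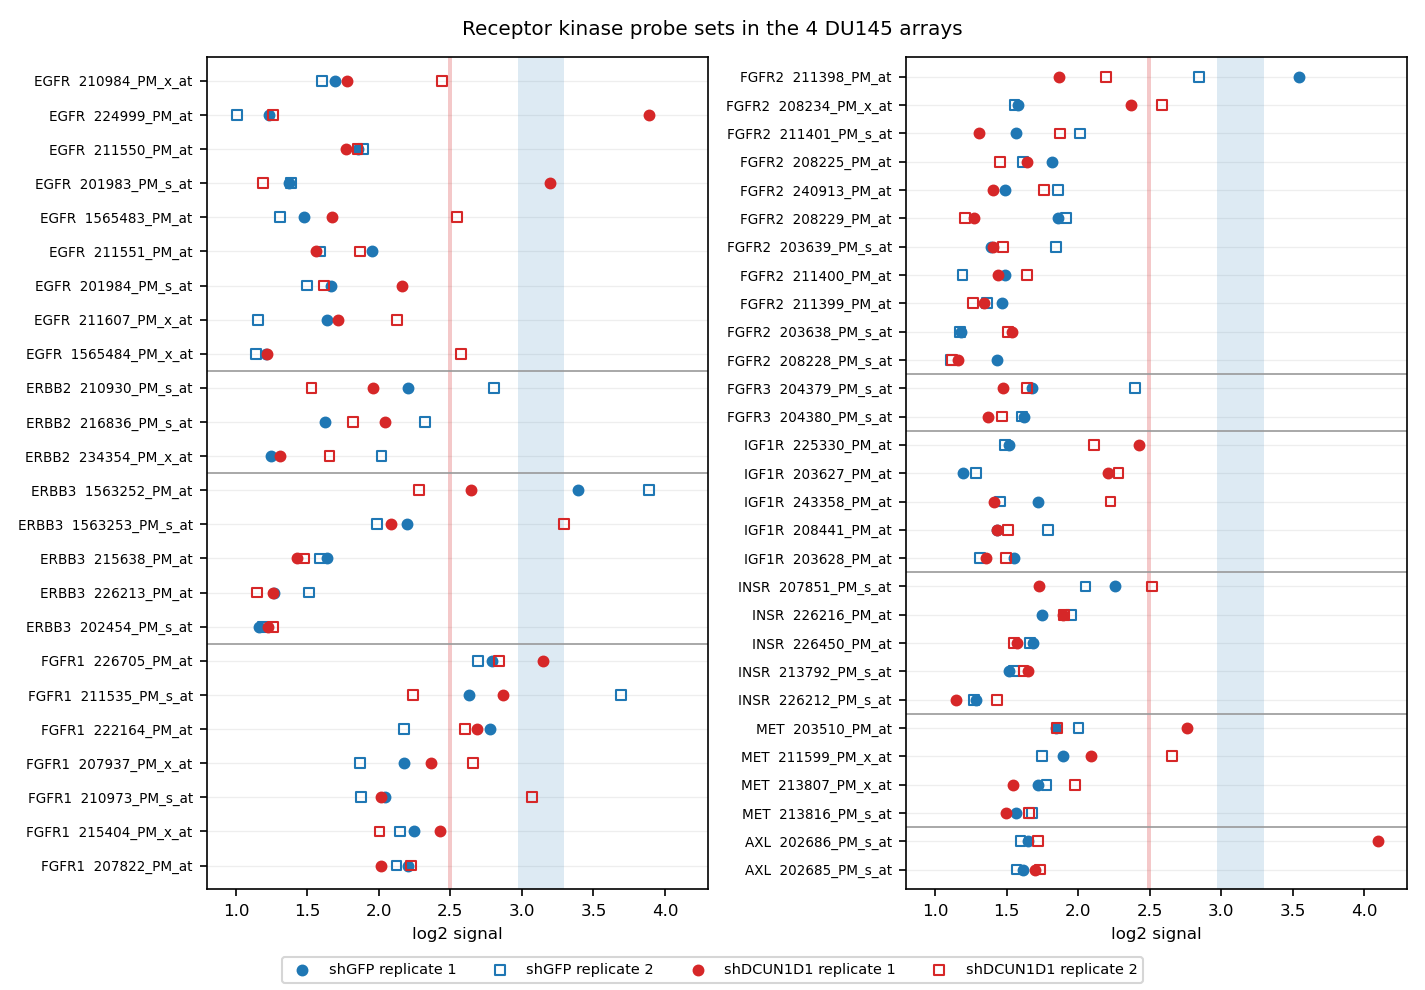
The log2 signal (horizontal axis) of each of the 53 receptor kinase probe sets in the 4 arrays, with blue symbols for shGFP, red for shDCUN1D1, circles for replicate 1 and squares for replicate 2. The shaded bands span the nonspecific control, 2.97 to 3.30 in the shGFP arrays (blue) and 2.48 to 2.51 in the shDCUN1D1 arrays (red), and 36 probe sets lay at or below it in every array.

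After knockdown, 2 probe sets of IGF1R read higher and 1 of ERBB3 lower past a bound on the fold change, and FGFR2 had probe sets past it in both directions. A difference was counted when its fold change had a 90% confidence limit, on the side nearer to no change, that exceeded 1.2 (limma, moderated standard errors). By this rule 3 of 53 probe sets (5.66%) were higher in shDCUN1D1 (IGF1R 203627_PM_at and 225330_PM_at, and FGFR2 208234_PM_x_at), where 1.18% of all 40914 were. Another 3 (5.66%) were lower (ERBB3 1563252_PM_at, and FGFR2 211398_PM_at and 208229_PM_at), where 2.38% of all were. EGFR, ERBB2, FGFR1, FGFR3, INSR, MET and AXL had no probe set past the bound.

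No receptor probe set had a limma adjusted p under 0.05, and 0% of all probe sets had one. The smallest adjusted p in limma was 0.625 in both. At an unadjusted p under 0.05 in limma, 7 of the 53 receptor probe sets remained, 4 higher and 3 lower. Of all 40914, 7.54% did, 939 higher and 2146 lower. An exact permutation test of 2 arrays against 2 cannot give a p below 0.33. Both shDCUN1D1 arrays lay above both shGFP arrays in 16 of the 53 (30.2%), against 17.9% of all, and below them in 11 (20.8%), against 25% of all. The median log2 difference was 0.01 over the 53 and -0.01 over all. When the arrays were centred on the nonspecific controls, which moved the median difference of all probe sets to 0.33, the count became 9 higher and 0 lower, in place of 3 and 3, and 7.63% of all were then higher and 0.606% lower. With a 95% limit in place of 90%, IGF1R 203627_PM_at, FGFR2 208234_PM_x_at and FGFR2 208229_PM_at were past the bound, and with the bound at 1.5, IGF1R 203627_PM_at alone.

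**Figure D2:**
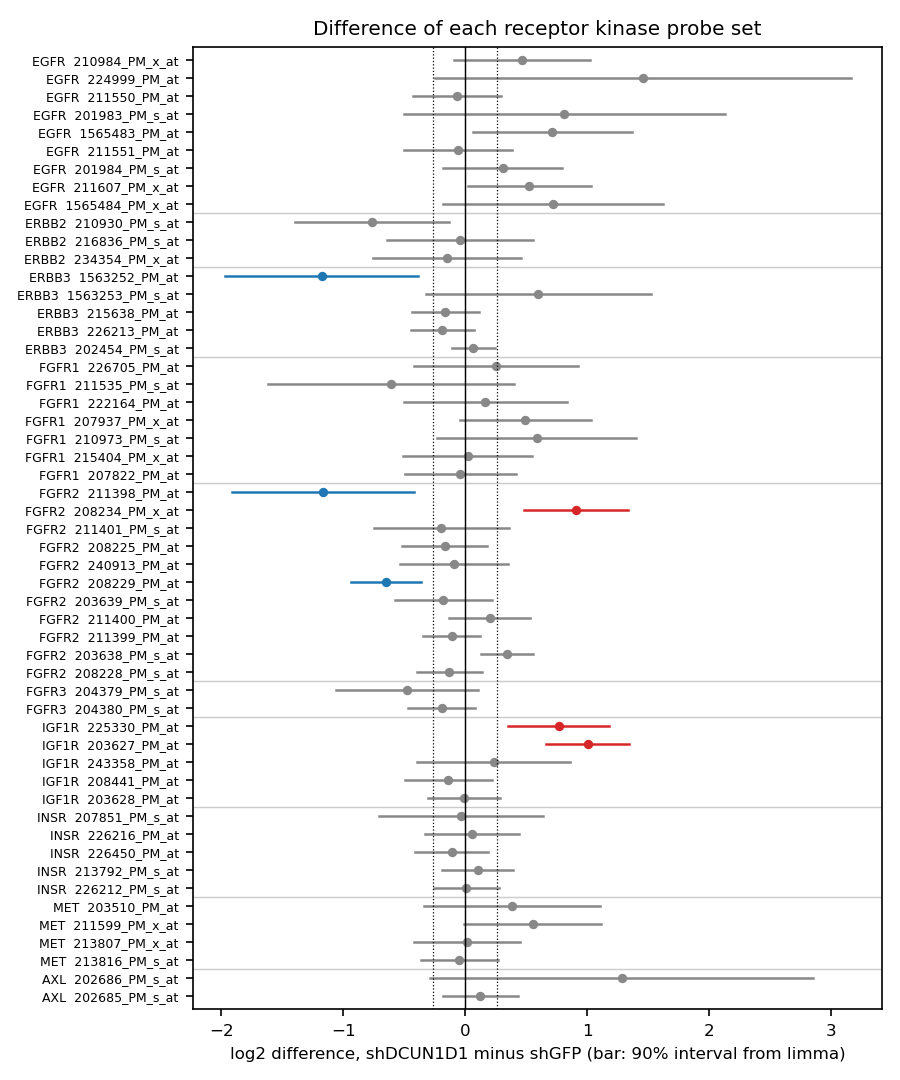
The log2 difference, shDCUN1D1 minus shGFP (horizontal axis), of each receptor kinase probe set, with its 90% interval from limma (n = 2 arrays a group). Dotted lines mark a fold change of 1.2 either way, and coloured points are the 3 probe sets higher (red) and the 3 lower (blue) past that bound.

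IGF1R, the receptor for insulin-like growth factors and a strong activator of PI3K-AKT, was the only one of the 10 with more than 1 probe set higher past the bound and none lower. 203627_PM_at read 1.199 and 1.28 in the shGFP arrays and 2.21 and 2.28 in the shDCUN1D1 arrays. The arrays of each group lay close together and the groups did not overlap, which gave a log2 difference of 1.00 (SE 0.17, 90% interval 0.66 to 1.34), a fold change of 2.005. It was past the bound in all 17 settings that tested it, with differences from 0.96 to 1.35, and was the only receptor probe set of which that was true. The remaining setting, a filter for signal above the nonspecific control, removed it, since it was below that control in every array. The settings all drew on the same 4 arrays. Without shDCUN1D1 replicate 2, which left a single knockdown array, the difference of 203627_PM_at was 0.97.

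The second IGF1R probe set, 225330_PM_at, read 1.52 and 1.49 in the shGFP arrays and 2.42 and 2.11 in the shDCUN1D1 arrays, a difference of 0.77 (SE 0.21, 90% interval 0.35 to 1.18). Its groups did not overlap either, but it was the nearest to the threshold of those past it, with a lower bound of 1.27, and was no longer past it without shGFP replicate 1 (0.78), shGFP replicate 2 (0.75) or shDCUN1D1 replicate 1 (0.61). The other 3 IGF1R probe sets overlapped between the groups. 243358_PM_at read 1.72 and 1.45 against 1.41 and 2.23, 208441_PM_at read 1.43 and 1.79 against 1.44 and 1.51, and 203628_PM_at read 1.55 and 1.32 against 1.35 and 1.495. Over the 5 probe sets the mean difference was 0.37 and the median 0.23, and none was above the nonspecific control in any array.

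The IGF1R promoter is shown because it was the receptor with more than 1 probe set higher. The 250 bases before its transcription start, from RefSeq on GRCh38.p14, chr15:98648289-98648538 on the plus strand, are printed 5′ to 3′ with each GGGCGG, the core of the GC box bound by SP1-type factors, in capitals.
IGF1R: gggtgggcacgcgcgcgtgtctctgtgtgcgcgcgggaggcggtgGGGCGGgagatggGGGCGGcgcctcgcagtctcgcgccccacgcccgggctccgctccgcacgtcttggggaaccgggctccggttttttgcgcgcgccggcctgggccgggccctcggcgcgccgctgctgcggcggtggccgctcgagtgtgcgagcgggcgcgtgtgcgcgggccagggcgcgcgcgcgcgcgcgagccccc
The window was 81.2% G or C, held 2 copies of GGGCGG counting its reverse complement CCGCCC, and had no TATAAA on either strand. Windows were matched for 8 of the 10 receptors, 14 windows in all. FGFR2, EGFR and AXL had more than 1 each, most of them for FGFR2, and FGFR1 and ERBB3 had none. GGGCGG on either strand occurred in 8 of these windows (57.1%) against 42.6% of 35116 windows of the same length. TATAAA on either strand occurred in 1 (7.14%) against 10.7%, and the median G or C content was 65% against 58%. A match of letters is a description of the window, and no binding was measured.

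INSR, the insulin receptor and closest relative of IGF1R, had 5 probe sets and none past the bound. Its brightest, 207851_PM_s_at, read 2.26 and 2.05 against 1.73 and 2.52, with shDCUN1D1 arrays on either side of the controls and a difference of -0.03 (SE 0.33, 90% interval -0.70 to 0.64). Its other 4 differed by -0.11 to 0.10. The mean over its probe sets was 0.00 and its smallest adjusted p in limma was 0.79. Whether IGF1R and INSR differed from each other in their response was not tested.

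ERBB3, the kinase-impaired neuregulin receptor that signals to PI3K through its partners, held the receptor probe set with the highest mean signal and the most negative log2 difference of the 53. 1563252_PM_at read 3.39 and 3.89 in the shGFP arrays and 2.64 and 2.28 in the shDCUN1D1 arrays. The groups did not overlap, the difference was -1.18 (SE 0.40, 90% interval -1.97 to -0.38), a fold change of 0.44, and it was above the nonspecific control in 3 arrays. It was no longer past the bound without shGFP replicate 2 (-0.93) or without shDCUN1D1 replicate 2 (-0.996), or when the arrays were centred on the nonspecific controls (-0.83), nor with a 95% limit or with the bound at 1.5. The nonspecific control itself was also lower in the shDCUN1D1 arrays, with a difference of -0.64, and its part in this result was not tested.

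The other ERBB3 probe sets did not repeat that difference. 1563253_PM_s_at read 2.20 and 1.98 against 2.08 and 3.29, high in shDCUN1D1 replicate 2 alone, with a difference of 0.60 (SE 0.46) that was past the bound without shDCUN1D1 replicate 1 (1.21). 215638_PM_at, 226213_PM_at and 202454_PM_s_at differed by -0.16, -0.19 and 0.07. The mean over the 5 was -0.17. The genes whose values were nearest to 1563252_PM_at over the 4 arrays were PICK1, HOMER3 and CCDC187, with root mean square differences of 0.07, 0.08 and 0.08 log2. PICK1 204746_PM_s_at, for example, read 3.42 and 3.91 against 2.53 and 2.35. These genes were picked for their closeness among all others on 4 arrays, and shared control with ERBB3 was not tested.

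EGFR, the receptor for EGF, TGF-alpha and amphiregulin, had 9 probe sets, 7 higher and 2 lower by their means and none past the bound. The mean difference over them was 0.54 and the median 0.53, but the high values came from one or the other shDCUN1D1 array. 224999_PM_at read 1.23 and 1.01 in the shGFP arrays and 3.89 and 1.26 in the shDCUN1D1 arrays (difference 1.46, SE 0.85). 201983_PM_s_at read 1.37 and 1.39 against 3.20 and 1.19 (0.81, SE 0.65). Both were high in shDCUN1D1 replicate 1 alone, the array in which GAPDH and the ends of ACTB were also highest. Without it their differences were 0.14 and -0.19, and without shDCUN1D1 replicate 2 they were 2.77 and 1.82, each from a single knockdown array. The part of what sets that array apart in these values was not tested.

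Another 3 EGFR probe sets were high in shDCUN1D1 replicate 2 instead. 210984_PM_x_at read 1.69 and 1.60 against 1.78 and 2.44, 1565483_PM_at read 1.48 and 1.31 against 1.67 and 2.54, and 1565484_PM_x_at read 1.21 and 1.14 against 1.22 and 2.58. 211607_PM_x_at read 1.63 and 1.15 against 1.71 and 2.13 (0.53, SE 0.25). The differences of 211550_PM_at, 211551_PM_at and 201984_PM_s_at lay between -0.06 and 0.31. Both shDCUN1D1 arrays lay above both shGFP arrays in 5 of the 9 EGFR probe sets and below them in 1. The 5 were 211607_PM_x_at, 210984_PM_x_at, 1565483_PM_at, 1565484_PM_x_at and 224999_PM_at. The nearest values of the groups were 1.22 and 1.21 in 1565484_PM_x_at and 1.26 and 1.23 in 224999_PM_at. Without shDCUN1D1 replicate 1, 210984_PM_x_at (0.80), 1565483_PM_at (1.15) and 1565484_PM_x_at (1.40) were past the bound. Which part of the transcript each of these probe sets reads is not known here.

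ERBB2, the ligandless partner of the family, had 3 probe sets, all lower by their means and none past the bound. 210930_PM_s_at read 2.20 and 2.81 in the shGFP arrays and 1.96 and 1.53 in the shDCUN1D1 arrays, without overlap, a difference of -0.76 (SE 0.31). Its lower bound of 1.09 was the nearest below the threshold, level with FGFR2 203638_PM_s_at at 1.09, and it passed without shGFP replicate 1 (-1.06) or shDCUN1D1 replicate 1 (-0.98). 216836_PM_s_at read 1.62 and 2.32 against 2.04 and 1.82, and 234354_PM_x_at read 1.24 and 2.02 against 1.31 and 1.65, both with overlap.

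FGFR2, a receptor for fibroblast growth factors whose splice forms divide epithelium from stroma, had 11 probe sets, 3 higher and 8 lower by their means. 211398_PM_at read 3.54 and 2.84 in the shGFP arrays and 1.87 and 2.19 in the shDCUN1D1 arrays, a difference of -1.16 (SE 0.37, 90% interval -1.91 to -0.42). 208229_PM_at read 1.86 and 1.92 against 1.27 and 1.21, a difference of -0.65 (SE 0.14, 90% interval -0.93 to -0.36). Both were lower past the bound with no overlap. However, 211398_PM_at was above the nonspecific control in shGFP replicate 1 alone, and 208229_PM_at was below it in every array.

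In the opposite direction, FGFR2 208234_PM_x_at read 1.58 and 1.56 in the shGFP arrays and 2.37 and 2.59 in the shDCUN1D1 arrays, a difference of 0.91 (SE 0.21, 90% interval 0.49 to 1.33). It was above the nonspecific control in shDCUN1D1 replicate 2 alone. 203638_PM_s_at read 1.18 and 1.18 against 1.54 and 1.51, with a difference of 0.34 (SE 0.11) that was not past the bound. The remaining 7 lay between -0.20 and 0.20, and the mean over the 11 was -0.11. The name ending _x_at marks probes that can match other transcripts, and which FGFR2 splice form each probe set reads is not known here.

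The size of 2 of the FGFR2 differences held with any 1 array left out while their calls did not. 208229_PM_at was not past the bound without shGFP replicate 2 (-0.62) or shDCUN1D1 replicate 2 (-0.62), and 208234_PM_x_at was not past it without shGFP replicate 1 (0.92) or shGFP replicate 2 (0.90). For 211398_PM_at the size moved as well, and it was not past the bound without shGFP replicate 1 (-0.81) or shDCUN1D1 replicate 1 (-1.001). Fits of 3 arrays have fewer degrees of freedom, and over all probe sets 47 were higher without shGFP replicate 2, in place of 481. Centred on the nonspecific controls, 211398_PM_at (-0.82) and 208229_PM_at (-0.30) were not past the bound and 208234_PM_x_at was (1.25).

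FGFR1, the receptor most used by mesenchymal cells, had 7 probe sets and none past the bound. 226705_PM_at read 2.79 and 2.69 in the shGFP arrays and 3.15 and 2.84 in the shDCUN1D1 arrays (0.25, SE 0.33), and 222164_PM_at read 2.78 and 2.18 against 2.69 and 2.60 (0.17, SE 0.33). These were above the nonspecific control in both shDCUN1D1 arrays and in neither shGFP array, and the control was lower in the former. 210973_PM_s_at read 2.04 and 1.87 against 2.02 and 3.07, high in shDCUN1D1 replicate 2 alone and past the bound without replicate 1 (1.11), and 211535_PM_s_at read 2.63 and 3.69 against 2.87 and 2.24, high in shGFP replicate 2 alone. The remaining 3 differed by -0.04 to 0.49.

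FGFR3, another FGF receptor of epithelium, had 2 probe sets, both lower by their means without overlap and neither past the bound. 204379_PM_s_at read 1.68 and 2.40 against 1.48 and 1.64 (-0.48, SE 0.29), and 204380_PM_s_at read 1.62 and 1.61 against 1.37 and 1.47 (-0.19, SE 0.14). Without shGFP replicate 1 the first was past the bound (-0.84), and without shGFP replicate 2 its difference shrank to -0.12.

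MET, the receptor for hepatocyte growth factor, had 4 probe sets and none past the bound. 203510_PM_at read 1.85 and 2.003 in the shGFP arrays and 2.76 and 1.85 in the shDCUN1D1 arrays (0.38, SE 0.36), high in shDCUN1D1 replicate 1 alone. Without that array its difference was -0.070, and without shDCUN1D1 replicate 2 it was 0.84 and past the bound. 211599_PM_x_at read 1.90 and 1.75 against 2.09 and 2.66 (0.55, SE 0.28), without overlap and highest in replicate 2, and was past the bound without shDCUN1D1 replicate 1 (0.83). The other 2 differed by 0.01 and -0.05.

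AXL, the GAS6 receptor linked to invasive behaviour, had 2 probe sets that gave unlike values. 202686_PM_s_at read 1.65 and 1.60 in the shGFP arrays and 4.09 and 1.72 in the shDCUN1D1 arrays, a difference of 1.28 (SE 0.78) that rested on shDCUN1D1 replicate 1. Without that array the difference was 0.095, and without shDCUN1D1 replicate 2 it was 2.47, each from a single knockdown array. 202685_PM_s_at read 1.61 and 1.57 against 1.70 and 1.73 (0.12, SE 0.15).

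**Figure D3:**
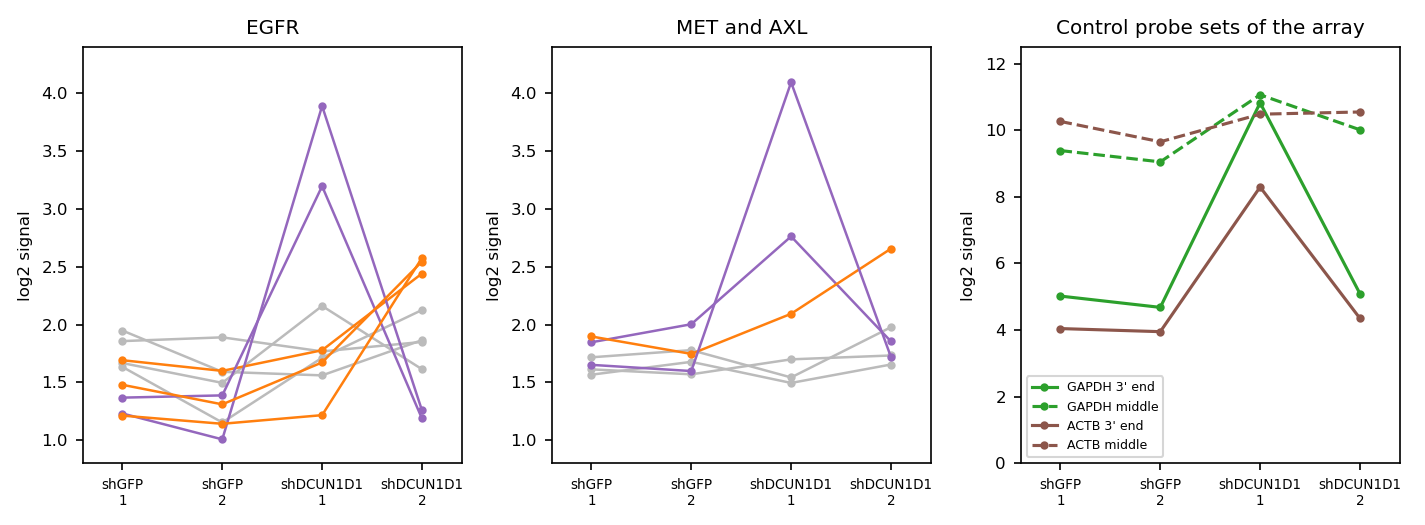
The log2 signal (vertical axis) of the EGFR, MET and AXL probe sets and of the control probe sets for GAPDH and ACTB in each array. Purple lines are receptor probe sets more than 0.5 log2 above every other array in shDCUN1D1 replicate 1, orange lines in shDCUN1D1 replicate 2, and grey lines neither, and the lines join 1 probe set and imply no order of arrays.

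Counted over all receptors, 4 of 53 probe sets (7.55%) read more than 0.5 log2 above each other array in shDCUN1D1 replicate 1, against 10.1% of all probe sets. They were EGFR 224999_PM_at and 201983_PM_s_at, MET 203510_PM_at and AXL 202686_PM_s_at. In shDCUN1D1 replicate 2 there were 7 (13.2%), against 3.4% of all, with EGFR, ERBB3, FGFR1, IGF1R and MET represented. Of these 7, 3 carried the ending _x_at, as did 9 of the 53 receptor probe sets (17%) and 7.54% of all. Among all 1391 probe sets that stood apart in that array, 140 (10.1%) carried it. In the control arrays the counts were 1 (1.89%, FGFR2 211398_PM_at) for replicate 1 and 3 (5.66%, in ERBB2, FGFR1 and FGFR3) for replicate 2, against 1.4% and 3.97% of all.

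**Figure D4:**
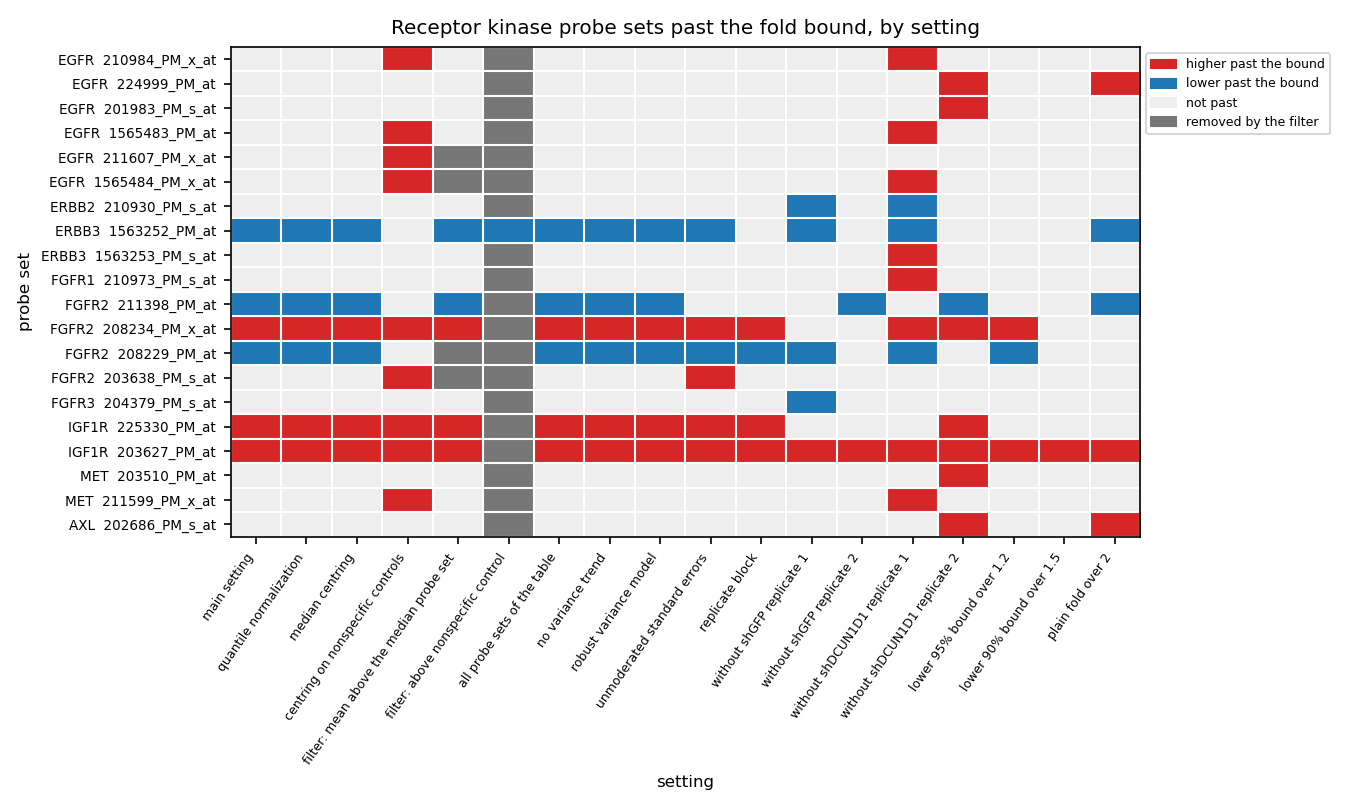
The 20 receptor kinase probe sets (rows) that were past the fold bound in at least 1 of 18 settings (columns), in red where higher and blue where lower in shDCUN1D1, and dark grey where a filter removed the probe set. IGF1R 203627_PM_at was higher in all 17 settings that tested it and was removed by the filter on the nonspecific control. Another 33 probe sets, not drawn, were past the bound in none.

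The genes around the receptors were read from lists of ligands, co-receptors and binding proteins, other receptor tyrosine kinases, adaptors and RAS-MAPK members, the PI3K-AKT arm, and feedback and removal factors. Of 162 genes on the lists, 146 were measured with 395 probe sets, and 16 were not analysed here. Limma called 0, as over all probe sets. Past the fold bound, 4 probe sets (1.01%) were higher and 12 (3.04%) lower, against the 1.18% and 2.38% of all given above. Read by each gene's brightest probe set, 1 ligand was higher, and 2 ligands, 1 co-receptor or binding protein and 2 other receptor kinases were lower. These are of the 146 genes measured, and of all 19774 genes read in this way 1.53% were higher and 3.39% lower. The adaptor, PI3K-AKT and feedback lists then had 0 either way, so their probe sets named below were not the brightest of their genes. The same holds for the probe sets named for IGFBP3, for ERBB4 and for 1 of IGFBP5 and CD44. Apart from LTK, no gene named below had more than 1 probe set past the bound. The median log2 difference was -0.01 in the lists and -0.01 over all probe sets.

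Among 71 ligand probe sets (32 of 35 genes), 1 was higher and 2 were lower, and the median was -0.05. FGF18, a ligand of FGFR2 and FGFR3, read 4.05 and 4.77 in the shGFP arrays and 2.34 and 1.15 in the shDCUN1D1 arrays at 206986_PM_at, a difference of -2.66 (SE 0.56). NRG1, the neuregulin that binds ERBB3, read 3.46 and 4.56 against 2.24 and 2.35 at 208232_PM_x_at, a difference of -1.71 (SE 0.50). NRG2, a related neuregulin, read 1.72 and 1.14 against 2.21 and 2.38 at 208062_PM_s_at, a difference of 0.86 (SE 0.26). In each of these ligands the other probe sets of the gene were not past the bound, with FGF18 between -0.18 and 0.18 and NRG1 between 0.02 and 0.37.

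Co-receptors and binding proteins (17 genes, 46 probe sets) had 1 higher and 2 lower, with a median of 0.04. IGFBP3, which binds and carries IGFs, read 1.23 and 1.44 against 2.21 and 2.01 at 212143_PM_s_at, a difference of 0.77. IGFBP5, another IGF carrier, read 2.39 and 2.02 against 0.95 and 1.35 at 203426_PM_s_at, a difference of -1.06. CD44, a hyaluronan receptor that assists MET, read 3.72 and 4.05 against 2.74 and 2.84 at 234411_PM_x_at, a difference of -1.09, while 8 of its 13 probe sets stood above every other array by more than 0.5 log2 in shDCUN1D1 replicate 1, up to 7.80 at 212063_PM_at.

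The other receptor tyrosine kinases (29 of 30 genes, 81 probe sets) had none higher and 4 lower, with a median of -0.08. LTK, an ALK-related kinase, was lower at both 207106_PM_s_at (3.27 and 3.48 against 2.26 and 1.77, a difference of -1.36) and 217184_PM_s_at (-0.62). PDGFRB, a platelet-derived growth factor receptor of stromal cells, read 3.46 and 3.47 against 2.67 and 2.24, a difference of -1.01. ERBB4, the remaining ERBB family member, read 1.87 and 1.73 against 1.13 and 1.24 at 206794_PM_at, a difference of -0.61.

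Downstream, the adaptors and RAS-MAPK list (21 of 28 genes, 61 probe sets, median 0.00) had 1 higher and 1 lower. STAT3, a transcription factor activated by receptor kinases, read 1.77 and 1.14 against 2.84 and 2.09 at 208991_PM_at (1.01), and the adaptor SHC1 read 2.85 and 3.33 against 1.69 and 1.52 at 201469_PM_s_at (-1.48). SHC1 gave an unlike value at 214853_PM_s_at, 0.83 (SE 0.80), with 4.62 in shDCUN1D1 replicate 1. The PI3K-AKT list (17 of 21 genes, 55 probe sets, median -0.04) also had 1 of each, with the AKT substrate GSK3B at 209945_PM_s_at reading 2.63 and 1.44 against 3.27 and 3.64 (1.42) and the mTORC1 activator RHEB at 241795_PM_at reading 4.35 and 3.996 against 2.96 and 2.33 (-1.53). RHEB also gave unlike values, since 3 of its 9 probe sets stood above every other array by more than 0.5 log2 in shDCUN1D1 replicate 1, among them 201453_PM_x_at with 4.23 and 4.14 against 7.46 and 4.72.

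Feedback and removal factors (30 of 31 genes, 81 probe sets, median 0.08) had none higher and 2 lower. LRIG1, a membrane protein that promotes ERBB receptor breakdown, read 2.36 and 2.57 against 1.78 and 1.43 at 240140_PM_s_at (-0.86). SOCS1, a suppressor of cytokine and insulin signals, read 1.98 and 1.94 against 1.42 and 1.28 at 210000_PM_s_at (-0.61). SH3KBP1, a CBL-binding adaptor, read 10.17 in shDCUN1D1 replicate 1 at 1553588_PM_at and 1.62, 1.83 and 2.28 in the other arrays, and was not past the bound.

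These list calls also rested on few arrays. Of the 16, only SHC1 201469_PM_s_at, IGFBP5 203426_PM_s_at, FGF18 206986_PM_at and LTK 207106_PM_s_at were past the bound without each array in turn, and CD44 234411_PM_x_at was past it in none of the 4. Without shGFP replicate 1, 9 of the 16 were still past it, with IGFBP3, PDGFRB, ERBB4, SOCS1, RHEB, CD44 and LTK 217184_PM_s_at lost. Without shGFP replicate 2, 8 were, with NRG1, NRG2, STAT3, GSK3B, PDGFRB, SOCS1, LRIG1 and CD44 lost. Without shDCUN1D1 replicate 1, 12 were, with STAT3, ERBB4, CD44 and LTK 217184_PM_s_at lost, and without shDCUN1D1 replicate 2, 9 were, with NRG2, GSK3B, RHEB, PDGFRB, SOCS1, LRIG1 and CD44 lost. Counting new calls as well, without shDCUN1D1 replicate 2 the lists had 39 higher (9.87%) and 12 lower (3.04%), against 9.8% and 2.13% of all probe sets. Without shDCUN1D1 replicate 1 they had 9 of each (2.28%), against 2.94% and 2.15% of all. Centred on the nonspecific controls they had 29 higher (7.34%) and 3 lower (0.759%), against the 7.63% and 0.606% of all given above.

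**Figure D5:**
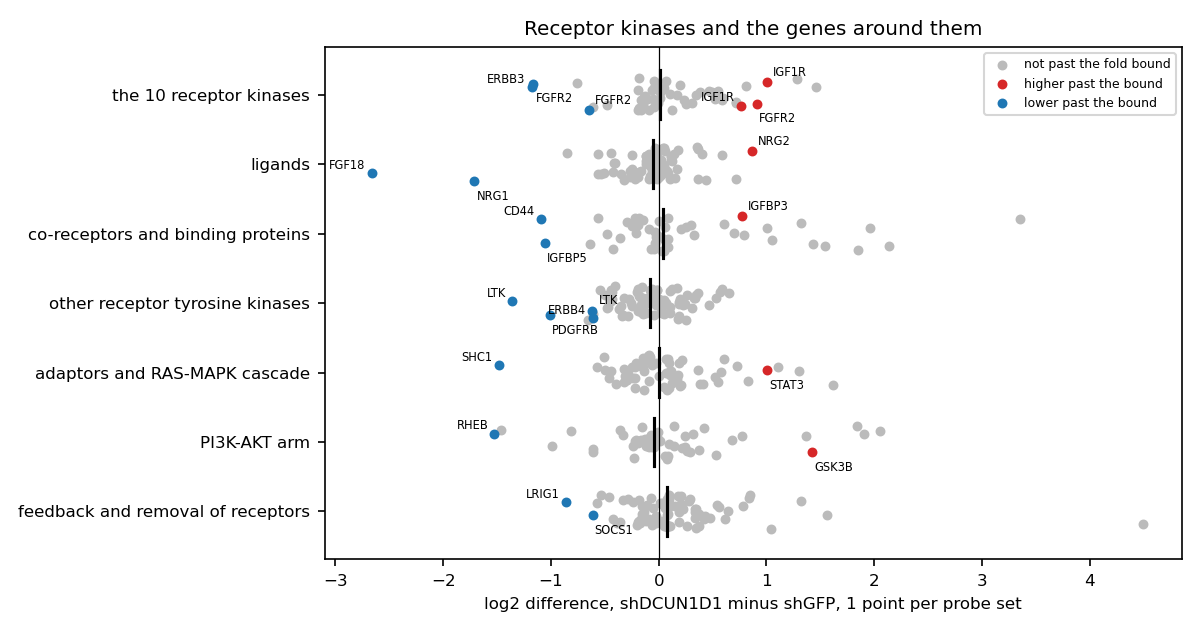
The log2 difference, shDCUN1D1 minus shGFP (horizontal axis), of every probe set of the 10 receptor kinases and of the 6 lists around them, with a black bar at each median. Red points (3 receptor and 4 list probe sets) were higher and blue points (3 and 12) lower past the fold bound, and vertical scatter within a row has no meaning.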

How the data were processed

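RNA from 4 DU145 samples was hybridised to single-channel Affymetrix arrays. The deposited table holds a log2 value for each probe set and array. Affymetrix Expression Console stands in the submitters' processing notes and dChip with spline smoothing in the methods, so the software behind the values is unsettled, as is the array, since the probe sets belong to another one than the methods name. No detection calls were used. Signal over background and the number of arrays limit the precision.

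Of 54715 probe sets, 102 controls, 864 naming several genes and 12835 naming none were left out. Gene names came from the platform annotation, and 40858 of 40914 matched the RefSeq table (GRCh38.p14) by gene ID. The deposited log2 values were compared with limma 3.58.1 (R 4.3.3), allowing the variance to depend on the mean, and p-values were adjusted by Benjamini-Hochberg over all 40914. The fold bound follows the rule of the methods (lower 90% bound over 1.2), with limma in place of dChip. The p-values measure the spread between arrays that the records call biological duplicates. The scripts were tested on simulated data.

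The receptors and lists were chosen with earlier results of these data known. Every receptor probe set was counted, and array values are given for each receptor's brightest probe set and those past the bound or above the nonspecific control in both arrays of a group, others being added after their values were seen. From the lists, genes with any probe set past the bound were named, at most 4 a list and direction. SHC1 214853_PM_s_at, CD44 212063_PM_at, RHEB 201453_PM_x_at and SH3KBP1 were named after their values were seen. Alternatives were other normalizations, filters, variance models, bounds, a replicate block and leaving out each array.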

Additional observations from a re-analysis of the deposited data

How the results depend on the processing

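For the 14 receptor probe sets named by the rule, 128 values came from other normalizations, filters, variance models and the replicate block, and 120 of these kept their direction and their side of the fold bound. Of the rest, 6 lost the bound, 1 gained it and 1 changed sign. Of the 6 probe sets past the bound, a 95% limit lost 3, the bound at 1.5 lost 5 and a plain fold over 2 lost 3. For the 10 genes, 18 of 20 means and medians over probe sets had the sign of the brightest probe set, and the 2 others were those of INSR. Of 56 values with 1 array left out, 35 kept both, 11 lost the bound, 6 gained it and 4 changed sign. Where an array was left out, the lone array of its group was assumed to vary like the other group.

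The number called by adjusted p, 0 in the report, ranged from 0 to 4 with 1 array left out, the 4 being without shDCUN1D1 replicate 2 (EGFR 224999_PM_at, adjusted p = 0.0027, and 201983_PM_s_at, 0.0075, AXL 202686_PM_s_at, 0.0056, and IGF1R 203627_PM_at, 0.034, in limma), where 2602 of all probe sets were called. It was 7 at an unadjusted p under 0.05. The number higher past the bound, 3 in the report, was 9 after centring on the nonspecific controls, 0 after a filter to probe sets above the nonspecific control in both arrays of a group, which left 3 receptor probe sets, 1 with the bound at 1.5, and from 1 to 8 with 1 array left out. The number lower, also 3, was 0 after that centring, 1 after that filter, 1 with a replicate block, 1 at a 95% bound, 0 with the bound at 1.5, and from 1 to 4 with 1 array left out. The causes were not tested, except that the filter tested fewer probe sets.

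INSR 207851_PM_s_at changed from -0.03 to 0.31 after centring on the nonspecific controls and ranged from -0.43 to 0.36 with 1 array left out. The INSR mean over probe sets was 0.0041 and the median 0.010. FGFR1 222164_PM_at ranged from -0.13 to 0.47 and MET 203510_PM_at from -0.070 to 0.84 with 1 array left out.

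Whether replicate numbers pair the samples could not be settled. The deviations of same-numbered arrays from their group means correlated at -0.04 across probe sets, which are not independent. With 2 arrays a group, replicate 2 mirrors replicate 1, so this is a single contrast that cannot exclude pairing. With the replicate block, 3 receptor probe sets were higher and 1 lower (FGFR2 208229_PM_at), with ERBB3 1563252_PM_at and FGFR2 211398_PM_at no longer past the bound, and all probe sets gave 505 higher and 669 lower in place of 481 and 974.

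Over all probe sets the counts moved by over 1.5 times after centring on the nonspecific controls (3120 higher, 248 lower), with that filter (452 lower), with unmoderated standard errors (297 higher), at a 95% bound (177 and 501), with the bound at 1.5 (105 and 310), with a plain fold over 2 (2159 higher), and without shGFP replicate 2 (47 and 503), shDCUN1D1 replicate 1 (1203 higher) or shDCUN1D1 replicate 2 (4008 higher). The filter on the nonspecific control tested only 4685 probe sets. Its 452 lower were 9.65% of those, against 2.38% of all without the filter.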
